A study of Mus musculus with 6 samples.

Results

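The genes described here are 45 genes of the germline, the piRNA pathway and meiosis, taken by symbol from the sense-strand counts of 6 RNA-seq libraries of mouse embryonic stem (ES) cells. All 45 were found among the 24054 gene rows, 44 by their current symbol and Meioc by an older one. They were sorted by role into 15 piRNA pathway genes, 10 genes of the synaptonemal complex, chromosome axis and meiotic cohesin, 9 meiotic recombination genes, 7 regulators of germ cells and meiotic entry, and 4 other genes expressed in the germline. The study examined Morc3, an ATPase of the MORC family, as a silencer of endogenous retroviruses. It compared 3 Morc3 knock-out (ko) lines, KO27-1, KO27-2 and KO27-3 (clones 1, 2 and 3 below), with 3 cultures of wild-type ES cells titled WT26 p42, p43 and p56, where the labels do not say what p stands for. Each ko line was a single clone made with Cas9 in the wild-type line wt26, and no rescued line was among these libraries. All 6 cultures were grown on gelatin without feeder cells, in medium that held serum and LIF, and the labels name no treatment. The wild-type libraries were therefore cultures of 1 line and the ko libraries were clones of it, and p-values measure the spread between these cultures and clones.

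PIWI proteins and their small RNA partners, the piRNAs, silence transposons in germ cells, and Tudor domain proteins and RNA helicases help to make and load the piRNAs. In meiosis, homologous chromosomes are held along a cohesin-based axis, joined by the synaptonemal complex and recombined after programmed DNA breaks. Many of these genes are kept silent outside the germline by promoter DNA methylation and by the Polycomb complex PRC1.6, whose subunits E2F6 and MGA recognise E2F and E-box sites, and ES cells are known to transcribe some of them at low level.

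Library sizes ran from 10740618 to 14123131 sense counts, and 12222 genes passed the filter on low counts and were tested. Levels are in CPM, here the share of a library's gene counts, TMM-scaled, expressed per 1000000. Morc3 itself (chr16) ranged from 77.8 to 137.9 CPM in the ko clones and from 272.0 to 302.2 CPM in the wild-type cultures, with a log2 fold change of -1.28 (SE 0.16, adjusted p = 8.43e-04 by edgeR's quasi-likelihood test, and at most 0.0184 in the other fits). All 8 markers of pluripotent ES cells were tested and 0 were called by edgeR (2 higher in ko at an unadjusted p under 0.05, 1 called higher by DESeq2), and they summed to 5954 to 6089 CPM in ko and 5451 to 5580 CPM in wild type. Markers of spermatids were nearly absent, with 5 of 6 at 0 in every library, and 0 of the 7 primordial germ cell markers were called by edgeR, DESeq2 or limma-voom (1 higher at an unadjusted p under 0.05 by edgeR, 1 called lower without p56), with summed levels of 133.6 to 148.3 CPM in ko and 135.8 to 154.3 CPM in wild type. Fibroblast markers summed to 5.30 to 5.64 CPM in ko and 8.62 to 9.59 CPM in wild type. Thy1 made up most of this and was called lower in ko by edgeR (log2 fold change -0.86, adjusted p = 0.00640). None of the other fibroblast markers passed the filter. Col1a1 was at 0.35 to 0.55 CPM in ko and 0.15 to 0.56 CPM in wild type, and the groups of Col1a2 also overlapped. Col3a1 and Lum had 2 and 1 counts in all, and Dcn was at 0 in every library. The oocyte, Sertoli and Leydig cell, and endoderm and mesoderm lists summed to between 2.56 and 5.39 CPM in every library, with 0 called by edgeR, DESeq2 or limma-voom and 0 at an unadjusted p under 0.05 by edgeR. Among the wild-type cultures p56 stood apart: the SD of the log2 differences over genes was 0.352 and 0.357 against p42 and p43, while p42 and p43 differed by 0.212. The ko clones were at 0.334 to 0.383 from p42 and p43 on this measure and at 0.430 to 0.439 from p56.

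The level of the 45 genes differed over a wide range in these ES cells. Levels between genes are compared as CPM per kilobase of exon, averaged over the 6 libraries. On this scale 24 genes reached 1 and 4 reached 10, and 7 stayed under 0.1. Highest was Syce2, a central element protein of the synaptonemal complex, at 33.5, followed by Hsf2bp, a partner of the recombination factor BRCA2, at 27.0, the Tudor protein gene Tdrd12 at 15.02 and Tex19.1 at 13.2. At the other end, Asz1, a germ cell protein needed for piRNA production, had 1 count in all, and Spo11, the enzyme that makes meiotic DNA breaks, had 2 counts, both in p43. The filter on low counts kept 33 of the 45 genes. Of these 33, 28 reached its cutoff of 0.815 CPM in all 3 ko libraries, while Hormad2 reached it in none of them and was tested only because of its wild-type level.

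**Figure D1:**
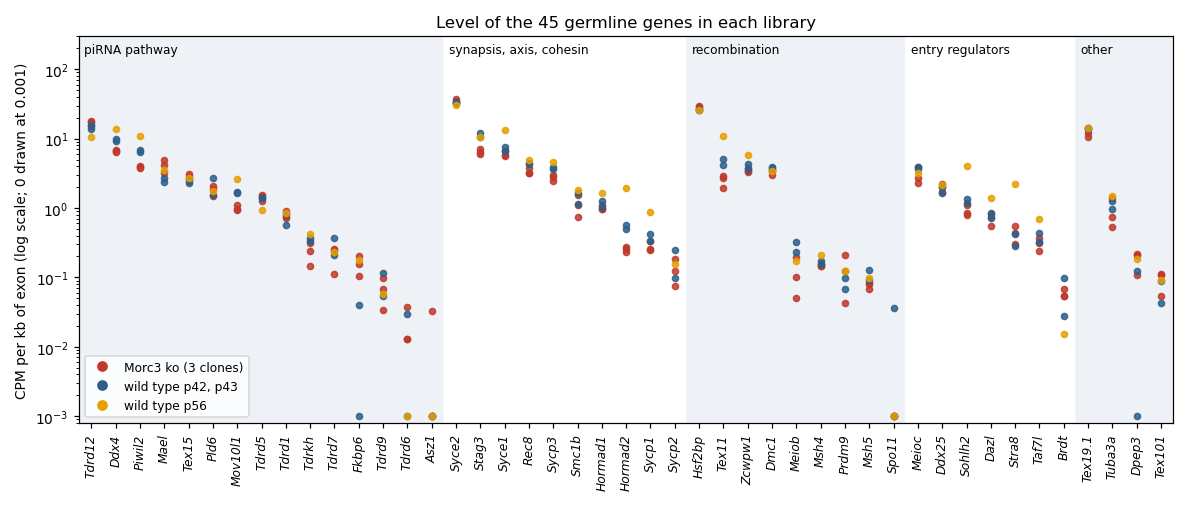
Level of each of the 45 genes in each library, as CPM per kilobase of exon on a log scale, by group and in order of the mean. Syce2, Hsf2bp, Tdrd12 and Tex19.1 had mean levels over 10, and Asz1 and Spo11 were at 0 in 5 libraries each.

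Promoter windows of 300 bases, from 250 before to 50 after a RefSeq start, were given for 39 of the 45 genes and not for Piwil2, Tex15, Tdrd6, Tex11, Meiob and Spo11. The 50 windows of these 39 genes held a median of 19.5 CpGs, against 7.0 in all 32851 windows. The E-box CACGTG, which reads the same on both strands, was present in 36.0% of the windows of the 39 genes and in 7.15% of all windows. Among windows with at least 10 CpGs, the shares were 40.0% and 10.9%. An E2F motif, GCGGGAAA or GCGCGAAA on either strand, was present in 8.0% of the windows of the 39 genes (Sycp3, Syce2, Meioc and Msh5) and in 1.37% of all windows. These matches describe the letters of the windows only. Of the tested genes, 12 had the E-box in a window and a median log2 fold change of -0.47, and 18 had a window without it and a median of -0.39.

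The upstream 250 bases of 5 genes are shown because the results below turn on them: Ddx4, Mov10l1 and Stag3 had the lowest adjusted p among genes with a window, and Hormad2 and Sohlh2 had the largest difference between p56 and the other wild-type cultures. Each is read 5′ to 3′ on the strand of its gene (GRCm38.p6, RefSeq), with CACGTG in capitals. The motif ended 23 bases before the start of Ddx4, 164 before that of Stag3 and 240 before that of Mov10l1, and it was not in the windows of Hormad2 and Sohlh2. For Ddx4, Mov10l1, Stag3 and Hormad2 this start lies inside the limits of the gene in the RefSeq gene table.
Ddx4 (chr13:112652311-112652560, minus strand): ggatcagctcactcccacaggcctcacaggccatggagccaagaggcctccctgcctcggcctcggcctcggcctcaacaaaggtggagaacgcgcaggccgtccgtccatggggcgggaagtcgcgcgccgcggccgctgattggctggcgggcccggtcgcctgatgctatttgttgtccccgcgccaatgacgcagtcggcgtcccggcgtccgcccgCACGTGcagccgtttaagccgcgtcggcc
Mov10l1 (chr15:88982744-88982993, plus strand): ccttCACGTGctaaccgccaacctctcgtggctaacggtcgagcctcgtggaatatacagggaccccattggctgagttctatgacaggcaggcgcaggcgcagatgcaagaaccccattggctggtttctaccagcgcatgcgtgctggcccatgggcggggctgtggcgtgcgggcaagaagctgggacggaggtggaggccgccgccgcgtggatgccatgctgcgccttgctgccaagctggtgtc
Stag3 (chr5:138280259-138280508, plus strand): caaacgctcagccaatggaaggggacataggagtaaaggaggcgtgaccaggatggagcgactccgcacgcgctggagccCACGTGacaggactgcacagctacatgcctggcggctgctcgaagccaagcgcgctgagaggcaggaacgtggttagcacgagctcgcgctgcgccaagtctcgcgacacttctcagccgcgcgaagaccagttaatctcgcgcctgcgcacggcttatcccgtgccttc
Hormad2 (chr11:4441083-4441332, minus strand): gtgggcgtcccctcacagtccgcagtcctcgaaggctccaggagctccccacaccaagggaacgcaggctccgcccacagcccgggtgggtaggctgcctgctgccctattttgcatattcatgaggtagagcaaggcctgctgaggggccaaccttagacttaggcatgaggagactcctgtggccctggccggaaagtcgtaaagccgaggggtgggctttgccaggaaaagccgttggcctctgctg
Sohlh2 (chr3:55181794-55182043, plus strand): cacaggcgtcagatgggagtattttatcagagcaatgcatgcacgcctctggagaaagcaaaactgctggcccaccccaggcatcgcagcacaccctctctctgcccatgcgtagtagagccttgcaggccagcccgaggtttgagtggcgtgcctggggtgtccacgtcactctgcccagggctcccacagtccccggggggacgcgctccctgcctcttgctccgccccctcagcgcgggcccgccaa

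In the comparison of Morc3 ko with wild type, Stag3 and Piwil2 were called lower and no tested gene of the set was called higher. At an adjusted p under 0.01, 2 of the 33 tested genes (6.06%) were lower in ko, where 0.417% of all tested genes were, and 0 were higher, where 0.859% of all were. DESeq2 and limma-voom also called 0 higher, and 3 genes (Mael, Tdrd12 and Hsf2bp) were higher at an unadjusted p under 0.05 by edgeR, against 13 lower. The shares of all tested genes at this unadjusted cut were not counted. Such counts, here and by group below, therefore give no direction of the set. In these bulk libraries, fewer cells that transcribe a gene and less RNA per cell cannot be told apart. With 2 genes called, the share rests on few events, and DESeq2 called 4 lower (Stag3, Piwil2, Ddx4 and Mov10l1) and limma-voom 1 (Stag3). At an adjusted p under 0.05, the lower genes came to 5 of 33 (15.2%), namely Stag3, Piwil2, Ddx4, Mov10l1 and Tex11, against 1.13% of all tested genes. Of these 5, Stag3 alone stayed under 0.05 when any 1 ko clone was left out. The adjusted p then reached 0.136 for Ddx4, 0.159 for Mov10l1 and 0.229 for Tex11, and Tex11 was also over 0.05 with DESeq2 (0.0813), limma-voom (0.0836) and robust estimation (0.192). The fitted change was below 0 for 25 genes and above 0 for 8, and over all tested genes for 6114 and 6108. The median was -0.40, against -0.00010 over all tested genes. Over all 45 genes, tested or not, the mean CPM was lower in ko for 30 and higher or equal for 15. All 3 ko libraries lay below all 3 wild-type libraries for 12 of the 33 genes (36.4%), and over all tested genes this share was 10.2%. They lay above for Hsf2bp alone (3.03%), against 9.67% of all. Hormad2, tested only through its wild-type level, is among the 12 and among the 25 fitted below 0. The set was chosen with earlier results of these data known. Its shares beside those of all genes, here and without p56, therefore describe the set and test nothing.

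Because p56 stood apart, the main counts were also taken without it. Against p42 and p43 alone, 4 of 32 tested genes were called lower (12.5%), Stag3, Piwil2, Ddx4 and Tex11, and 1.15% of all genes were called lower in that fit. By edgeR 0 of the 32 were called higher there, with 3 at an unadjusted p under 0.05, and 1.97% of all genes were called higher. The median log2 fold change was -0.26 without p56. All ko libraries lay below p42 and p43 for 13 of the 33 genes (39.4%), and for 17.5% of all tested genes. They lay above p42 and p43 for Mael and Hsf2bp, 2 of the 33. That share over all tested genes was not counted, so the 2 genes above cannot be set against the 13 below. Hormad2, tested only through its wild-type level, is among the 13.

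**Figure D2:**
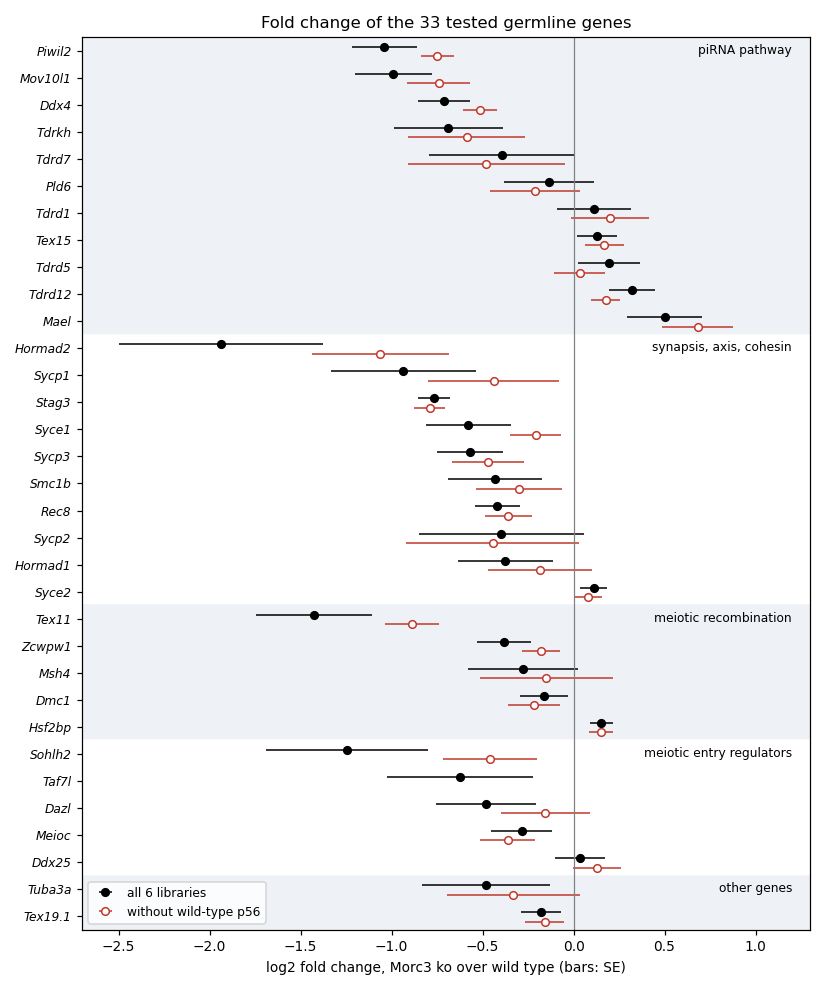
Log2 fold change of Morc3 ko over wild type for the 33 tested genes by group, with bars of 1 SE, fitted on all 6 libraries (filled) and without p56 (open; Taf7l was not tested there). Stag3 lay at -0.77 with all libraries and at -0.79 without p56, and Hormad2, Tex11 and Sohlh2 lay nearer to 0 without p56.

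Among the 15 piRNA pathway genes, 11 were tested, 1 was called lower and 0 were called higher by edgeR (2 higher and 4 lower at an unadjusted p under 0.05), and the median log2 fold change was -0.13. This median ran from -0.011 without ko clone 2 to -0.29 without p43, and was -0.23 without ko clone 3, -0.043 without p42 and -0.21 without p56. Piwil2 (chr14:70372477-70436898, minus strand) encodes a PIWI protein that binds piRNAs. It was at 21.0, 20.0 and 21.4 CPM in ko clones 1, 2 and 3 and at 34.1, 35.9 and 58.5 CPM in p42, p43 and p56. The ko clones were close together and below every wild-type culture, and p56 was the highest library. The log2 fold change was -1.04 (SE 0.18, adjusted p = 0.00804). Without p56 it was -0.75 (SE 0.091, adjusted p = 8.16e-06). Piwil2 lost its call when any 1 ko clone was left out, with adjusted p of 0.0514, 0.0766 and 0.0646 without clones 1, 2 and 3, and in the limma-voom (0.0161) and robust (0.0307) fits. It lies on chromosome 14, whose 422 tested genes had a median log2 ratio to the wild-type mean of -0.20 to -0.22 in the ko clones, of -0.12 in p42 and p43 and of 0.24 in p56. With this chromosome-wide difference taken out, the log2 fold change of Piwil2 was -0.81 (adjusted p = 0.00161).

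Ddx4 (chr13:112598333-112652633, minus strand), the germ cell RNA helicase also called Vasa, was at 20.3, 19.16 and 20.8 CPM in ko clones 1, 2 and 3 and at 27.9, 29.5 and 41.5 CPM in p42, p43 and p56. The groups did not overlap, p42 and p43 were near each other and p56 was above them. Its log2 fold change of -0.71 (SE 0.14) had an adjusted p of 0.0182, which missed the threshold. Without p56 the change was smaller, -0.51 (SE 0.095), and its adjusted p was 0.00123. Mov10l1 (chr15:88982891-89055152, plus strand), a helicase that binds piRNA precursors, was at 3.88, 4.68 and 3.99 CPM in ko and at 6.95, 7.07 and 11.04 CPM in p42, p43 and p56. It had the same order of libraries, with the ko clones lowest and p56 highest. Its log2 fold change was -0.99 (SE 0.21, adjusted p = 0.0265), and -0.74 (SE 0.17, adjusted p = 0.0111) without p56.

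The most abundant of these 15 piRNA pathway genes had a fitted value above 0. Tdrd12, a Tudor domain helicase, was at 77.2, 74.8 and 65.3 CPM in ko and at 67.9, 60.4 and 45.3 CPM in p42, p43 and p56. The groups overlapped, p56 was the lowest library, and the log2 fold change of 0.32 (SE 0.13) had an adjusted p of 0.255. Mael, Tex15, Tdrd1 and Tdrd5, all needed to silence transposons in male germ cells, also had fitted changes above 0, from 0.11 to 0.50. Their groups overlapped and their adjusted p ran from 0.282 to 0.867, and Tdrd1 turned to -0.043 without p42. Without p56 the change of Mael was 0.68 (SE 0.19, adjusted p = 0.0397), with every ko clone above p42 and p43. The Tudor protein genes Tdrkh and Tdrd7 and the mitochondrial nuclease gene Pld6 were fitted below 0, at -0.69, -0.39 and -0.13, and did not pass the test, and Pld6 turned to 0.14 without p42. Of the 4 piRNA genes under the filter, Tdrd9 had 29 counts over the 6 libraries, Fkbp6 had 14, Tdrd6 had 8 and Asz1 had 1, too few to compare. Tdrd9 had 2, 6 and 4 counts in ko and 4, 9 and 4 in p42, p43 and p56. Fkbp6 had 3, 4 and 2 counts in ko and 0, 1 and 4 in p42, p43 and p56. Tdrd6 had 1, 3 and 1 counts in ko and 0, 3 and 0 in p42, p43 and p56.

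All 10 genes of the synaptonemal complex, axis and cohesin were tested, 1 was called lower and 0 higher by edgeR (0 higher and 6 lower at an unadjusted p under 0.05), and 9 had a fitted change below 0, with a median of -0.50. Stag3 (chr5:138272514-138312397, plus strand), the cohesin subunit of meiotic chromosomes, was at 40.9, 36.8 and 34.5 CPM in ko clones 1, 2 and 3 and at 60.0, 69.4 and 61.5 CPM in p42, p43 and p56. The groups were well apart, and p56 lay between the other wild-type cultures. Mean levels of 37.4 ± 3.27 CPM in the clones and 63.6 ± 5.02 CPM in the wild-type cultures (SD, n = 3 each) gave a log2 fold change of -0.77 (SE 0.089, adjusted p = 4.66e-04). Stag3 was called in each of 14 other fits, with adjusted p up to 0.00834, and its change was -0.79 (SE 0.085) without p56. It was the only gene of the set for which this held.

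Other cohesin and axis genes gave smaller or less certain differences. Rec8, the cohesin ring subunit of meiosis, was at 11.0, 9.27 and 9.44 CPM in ko and at 12.9, 12.5 and 14.3 CPM in p42, p43 and p56, with no overlap and a log2 fold change of -0.42 (SE 0.12, adjusted p = 0.123). It lies on chromosome 14 like Piwil2, and with the chromosome-wide difference taken out its log2 fold change was -0.21 (adjusted p = 0.524). Smc1b and Hormad1, which belong to the cohesin ring and to the axis, had overlapping groups and adjusted p of 0.501 and 0.588. Hormad2 (chr11:4345801-4441198, minus strand), an axis protein, was at 0.74, 0.71 and 0.64 CPM in ko and at 1.38, 1.54 and 5.25 CPM in p42, p43 and p56. The groups did not overlap, and p56 was at 3.60 times the mean of p42 and p43. The log2 fold change was -1.94 (SE 0.56, adjusted p = 0.113) with p56 and -1.06 (SE 0.38, adjusted p = 0.112) without it, and it was tested only through its wild-type level.

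Of the synaptonemal complex proteins proper, Syce2 was the most abundant and had the smallest fitted change. It was at 73.5, 68.3 and 63.4 CPM in ko and at 64.0, 65.5 and 60.6 CPM in p42, p43 and p56, with a log2 fold change of 0.11 (SE 0.075, adjusted p = 0.580) and overlapping groups. Syce1, another central element protein, was at 8.13, 9.80 and 8.62 CPM in ko and at 9.56, 10.9 and 19.4 CPM in p42, p43 and p56, so that the groups overlapped and p56 alone was high. Sycp1, the transverse filament protein, was at 0.92, 0.88 and 1.18 CPM in ko and at 1.52, 1.19 and 3.09 CPM in p42, p43 and p56. Ko and wild type touched but did not overlap, and the log2 fold change of -0.94 (SE 0.40) had an adjusted p of 0.309. Sycp3, a lateral element protein, did not overlap between the groups either (log2 fold change -0.57, SE 0.18, adjusted p = 0.158), while the groups of its partner Sycp2 did (adjusted p = 0.761, with a change of 0.011 without p43 and below 0 otherwise). Reads on the strand opposite to the gene made up 66.0% of the counts of Sycp1 and 16.1% of those of Sycp3, which lies across from an exon of Chpt1. These reads were left out of the values given here.

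Of the 9 recombination genes, 5 were tested and 0 were called by edgeR, DESeq2 or limma-voom, with a median log2 fold change of -0.28, and of -0.18 without p56. At an unadjusted p under 0.05 edgeR put 2 of them lower and 1 higher. Tex11 (chrX:100838648-101059639, minus strand), an X-linked gene needed for crossovers and male fertility, was at 10.3, 6.97 and 9.89 CPM in ko clones 1, 2 and 3 and at 15.1, 18.5 and 39.9 CPM in p42, p43 and p56. Every ko clone was below every wild-type culture, and p56 was more than 2-fold above the mean of p42 and p43. The log2 fold change was -1.43 (SE 0.32, adjusted p = 0.0355). Without p56 it was -0.89 (SE 0.15) and was called, with an adjusted p of 4.21e-04. Hsf2bp was at 96.1, 105.8 and 104.1 CPM in ko and at 92.3, 91.5 and 91.6 CPM in p42, p43 and p56. Its ko clones all lay above wild type, and its log2 fold change of 0.15 (SE 0.065) had an adjusted p of 0.305. Zcwpw1, a reader of the histone marks that PRDM9 sets, was at 21.2, 19.6 and 19.06 CPM in ko and at 20.9, 24.4 and 32.97 CPM in p42, p43 and p56, with overlap and an adjusted p of 0.259.

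Dmc1, the meiotic strand-exchange protein, was at 7.35 to 8.56 CPM in ko and 8.26 to 9.49 CPM in wild type (adjusted p = 0.670), and Msh4, a MutS homolog that stabilises crossover intermediates, was at 1.00 to 1.06 and 1.09 to 1.47 CPM (adjusted p = 0.751). Msh5, the partner of MSH4, had 4, 5 and 5 counts in ko and 7, 10 and 7 in p42, p43 and p56. Meiob, which coats single-stranded DNA in meiosis, had 2, 4 and 1 counts in ko and 8, 6 and 4 in p42, p43 and p56. Prdm9, which places recombination hotspots, had 2, 6 and 10 counts in ko and 4, 6 and 7 in p42, p43 and p56. These genes were under the filter on low counts, and a difference was not detectable at this depth.

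Among the 7 regulators of germ cells and meiotic entry, 5 were tested and 0 were called by edgeR, DESeq2 or limma-voom, with 1 lower and 0 higher at an unadjusted p under 0.05 by edgeR. The median log2 fold change was -0.48, and -0.26 without p56. Meioc, which is needed for meiotic prophase to proceed, was at 17.7, 10.5 and 12.7 CPM in ko and at 18.2, 16.8 and 14.8 CPM in p42, p43 and p56, and the groups overlapped (adjusted p = 0.500). Ddx25, a helicase of spermatids, was at 15.1, 11.9 and 14.1 CPM in ko and at 13.8, 11.3 and 15.1 CPM in p42, p43 and p56, with a log2 fold change of 0.036 (SE 0.14, adjusted p = 0.945). Sohlh2 (chr3:55182044-55209957, plus strand), a transcription factor of early germ cell differentiation, was at 1.85, 2.03 and 2.63 CPM in ko and at 3.19, 2.80 and 9.65 CPM in p42, p43 and p56. Its p56 level was far above the rest, and the highest ko clone was just below p43. The log2 fold change was -1.24 (SE 0.45, adjusted p = 0.208) and -0.46 (SE 0.26, adjusted p = 0.353) without p56. Dazl, a germ cell RNA-binding protein, and Taf7l, a testis form of a general transcription factor subunit, had overlapping groups and adjusted p of 0.486 and 0.544.

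Stra8, the retinoic acid target that drives entry into meiosis, was not tested because too few libraries reached the filter's cutoff. It had 6, 9 and 11 counts in ko clones 1, 2 and 3 and 7, 11 and 52 counts in p42, p43 and p56. The ranges of the groups overlapped with p56 and without it. Brdt, a testis bromodomain protein, had 3, 4 and 3 counts in ko and 7, 2 and 1 in p42, p43 and p56. Of the 4 other genes, Tex19.1, a germline and placenta gene whose counts could be shared with its near copy Tex19.2, was at 19.9, 26.8 and 22.8 CPM in ko and at 26.3, 25.6 and 27.0 CPM in p42, p43 and p56 (adjusted p = 0.528). Tuba3a, a testis alpha-tubulin whose reads can be split with the near copy Tuba3b, was at 1.11, 0.79 and 2.09 CPM in ko and at 1.88, 1.47 and 2.24 CPM in p42, p43 and p56 (adjusted p = 0.616). For both the groups overlapped. Dpep3 had 4, 4 and 2 counts in ko and 0, 3 and 4 in p42, p43 and p56, with more counts (30) on the strand opposite to the gene than on its own (17), and Tex101 had at most 2 counts in any library.

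**Figure D3:**
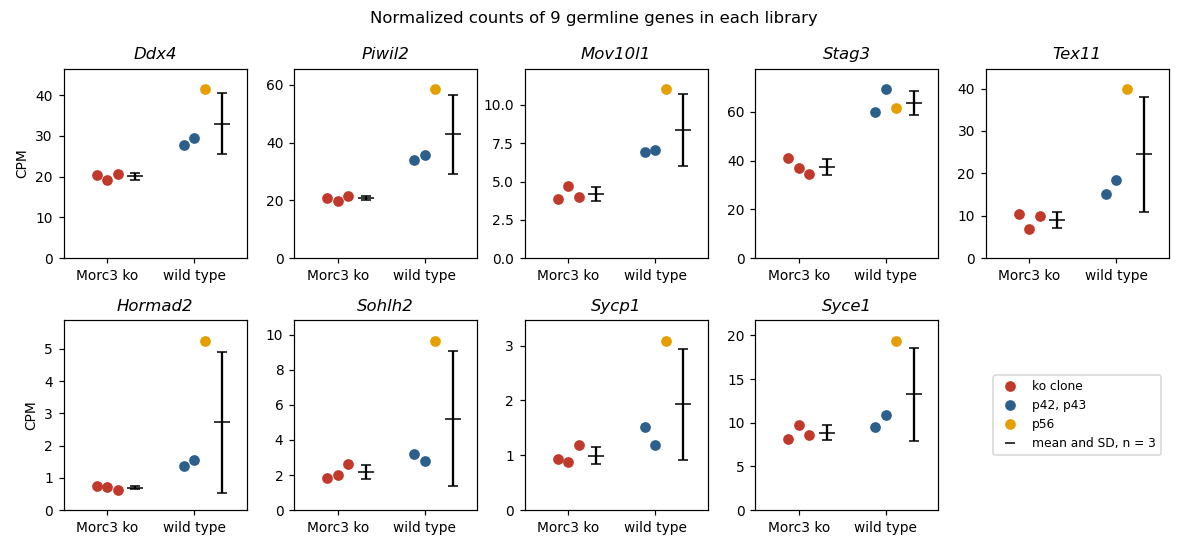
CPM of 9 genes in each ko clone and wild-type culture, with the mean and SD of 3 libraries beside the points: the 5 genes with an adjusted p under 0.05, then 4 of the 5 with the largest difference between p56 and the other wild-type cultures (Tex11 is the fifth). For Stag3 p56 lay among the wild-type cultures, and for the other 8 genes it was the highest library.

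The place of p56 was then described for each tested gene. A single culture had this label, so no test was made. It was the highest of the 6 libraries for 19 of the 33 tested genes (57.6%), against 24.6% of all tested genes, and the lowest for 3 (9.09%), against 24.9% of all. The 3 were Tdrd5, Tdrd12 and Syce2. By group, p56 was highest for 4 of 11 piRNA pathway genes, 7 of 10 genes of the synaptonemal complex, axis and cohesin, 3 of 5 recombination genes, 3 of 5 regulators and both tested genes of the last group. The median difference in log2 CPM between p56 and the mean of p42 and p43 was 0.28 over the 33 genes, with 0.27 for the piRNA pathway and 0.76 for the regulators. The choice of the set with earlier results known also limits these shares and those for a 2-fold excess below.

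At least a 2-fold excess of p56 over the mean of p42 and p43 was seen for 4 of the 33 genes (12.1%), and for 0.548% of all tested genes. These were Hormad2, Sohlh2, Tex11 and Sycp1, with differences of 1.74, 1.64, 1.25 and 1.11 in log2 CPM. Syce1 and Dazl followed at 0.91 and 0.81. Hormad2 passed the filter only through the wild-type libraries, p56 included. No tested gene of the set was 2-fold lower in p56, and the lowest values were -0.56 for Tdrd5 and -0.50 for Tdrd12. The summed level of the 45 genes was 525.3, 502.3 and 498.8 CPM in ko clones 1, 2 and 3 and 554.2, 569.1 and 643.4 CPM in p42, p43 and p56, in which a few abundant genes weigh most.

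**Figure D4:**
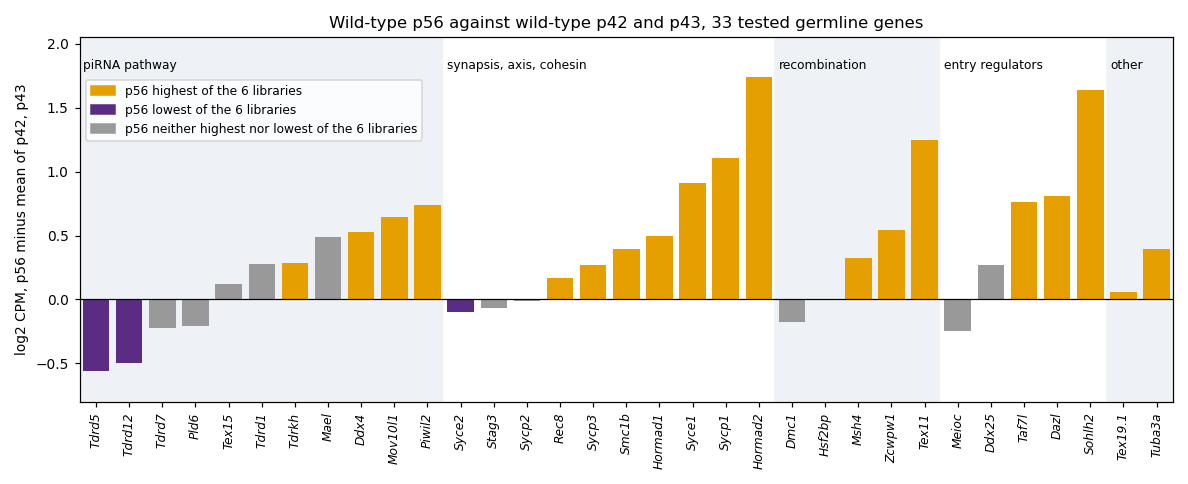
Difference in log2 CPM between wild-type p56 and the mean of p42 and p43 for the 33 tested genes by group, coloured by the place of p56 among the 6 libraries. Bars ran from -0.56 for Tdrd5 to 1.74 for Hormad2, and 19 genes had p56 as the highest library.

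The summed markers of primordial germ cells and of spermatogonia were lower in p56 than in p42 and p43, while single markers were highest or lowest there. The summed primordial germ cell markers were at 135.8 CPM in p56, within the range of the ko clones and below p42 and p43 (154.3 and 151.2 CPM). Of these 7 markers, Prdm14 was highest in p56 at 34.1 CPM against 23.9 to 29.4 CPM in the other libraries. Nanos3 was also highest there, at 3.09 CPM against 1.48 to 2.47 CPM. Lowest in p56 were Prdm1 (8.65 against 9.87 to 14.7 CPM), Dppa3 (9.81 against 9.89 to 15.8 CPM) and Kit (16.5 against 18.0 to 21.2 CPM). Tfap2c and Dnd1 were neither. The spermatogonia markers were at 51.1 CPM in p56, against 66.9 and 68.9 CPM in p43 and p42, with Nanos2 at 0 in every library. Uchl1 alone made up 49.9 CPM of this sum in p56. In the ko comparison 2 of the 6 spermatogonia markers were tested and 0 were called by edgeR, DESeq2 or limma-voom. Rhox13 was at 1.39, 1.94 and 1.18 CPM in ko and at 0.36, 0.77 and 0.54 CPM in p42, p43 and p56. Its log2 fold change by edgeR was 1.41 (adjusted p = 0.0815), and that of Uchl1 was -0.17 (adjusted p = 0.541). The 6 spermatid markers together had 1 count in p56. Of the genes for DNA methylation, Dnmt3l, a cofactor of de novo methylation, was at 104.8 CPM in p56 against 278.8 and 270.9 CPM in p42 and p43 and 222.1 to 305.5 CPM in ko, and Dnmt3a was at 76.2 CPM in p56 against 129.5 and 150.9 CPM. The other de novo enzyme gene Dnmt3b (221.1 against 224.1 and 231.3 CPM) and the maintenance enzyme gene Dnmt1 (424.4 against 429.6 and 425.5 CPM) were near their levels in p42 and p43, and Uhrf1, which recruits DNMT1, was highest in p56 (583.5 against 530.8 and 548.8 CPM). These genes were chosen after their values were seen. Their part in the levels of the germline genes was not tested. Of the fibroblast markers, Thy1 alone passed the filter, and it was lower in ko. The chromosome 14 difference went with both the ko comparison and p56. The part of Thy1-positive cells was not tested. For chromosome 14 the ko fold changes of Piwil2 and Rec8 with its difference taken out are given above. The p56 values of both genes keep this difference, at 0.74 and 0.17 log2 CPM above the mean of p42 and p43. The chromosome 14 median was 0.24 in p56 and -0.12 in p42 and p43, as log2 ratios to the wild-type mean. The p56 excess of Rec8 was therefore smaller than that of its chromosome. Both count among the 19 genes with p56 highest.

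Other genes of the same processes were taken from wider lists. Of 16 further piRNA pathway genes 15 were in the counts and 12 were tested, with 0 called by edgeR, DESeq2 or limma-voom, 3 lower and 1 higher at an unadjusted p under 0.05 by edgeR, and a median log2 fold change of -0.052. Without p56 edgeR called 1 lower and 1 higher, named here after their values were seen. Piwil4, a PIWI protein of fetal male germ cells, was at 0.65, 0.62 and 0.82 CPM in ko and at 2.10, 2.31 and 1.54 CPM in p42, p43 and p56 (log2 fold change -1.65 and adjusted p = 0.00413 without p56, -1.51 and 0.0262 with it). Like Hormad2, it passed the filter only through its wild-type level. Stk31, a Tudor domain kinase-like protein, was at 18.9, 25.1 and 24.8 CPM in ko and at 12.7, 13.3 and 23.5 CPM in p42, p43 and p56, so that p56 lay within the range of the ko clones (0.82 and 1.74e-04 without p56, 0.48 and 0.315 with it). All ko libraries lay below all wild-type libraries for 4 of the 12 further piRNA genes, 1 of the 14 further meiosis genes and 0 of the 24 repressors described next. Over all tested genes this share was 10.2%. Piwil4 and Gpat2 were among the 4, and Gpat2 is named after its values were seen. Gpat2 had 5, 5 and 2 counts in ko and 16, 16 and 12 in p42, p43 and p56. Like Piwil4, it was tested only through its wild-type level, so the filter itself favoured this order for both. Rnf17, a Tudor domain protein gene of chromosome 14 and more abundant than Tdrd12, was among the 4 and is also named after its values were seen. It was at 107.4, 130.2 and 132.9 CPM in ko and at 152.3, 152.7 and 310.4 CPM in p42, p43 and p56, with p56 more than 2-fold above p42 and p43. The log2 fold change was -0.73 (SE 0.23, adjusted p = 0.139), -0.30 (adjusted p = 0.0191) without p56 and -0.48 (adjusted p = 0.154) with the chromosome-wide difference taken out. Of 26 further meiosis genes 23 were in the counts and 14 were tested, again with 0 called by the 3 tools, 1 lower and 2 higher at an unadjusted p under 0.05 by edgeR, and a median of -0.060. Of 24 repressors of germline genes, which include the PRC1.6 subunits, histone methyltransferases and DNA methyltransferases, all were tested, 0 were called by the 3 tools, 0 were lower and 1 was higher at an unadjusted p under 0.05 by edgeR, and the median was 0.025. For p56, 2 of the 12 further piRNA genes, 4 of the 14 further meiosis genes and 4 of the 24 repressors had it as the highest library. It was the lowest for 3, 2 and 8 of them. Over all tested genes p56 was highest for 24.6% and lowest for 24.9%.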

How the data were processed

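The authors extracted total RNA, removed ribosomal RNA, made strand-specific libraries and aligned paired-end reads to mm10 with STAR, which counted reads per gene; the annotation is not given in the sources used here. The deposited files hold these raw counts, 1 file for each of the 6 libraries, and the authors tested them with DESeq2 at an adjusted p under 0.01. Sense counts were 10740618, 11525164 and 11201889 in ko clones 1, 2 and 3 and 13619604, 14123131 and 13013286 in cultures p42, p43 and p56. The 4 rows that name no gene held 36.2% to 37.7% of the reads and were left out.

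Counts were tested with edgeR 4.0.16 (R 4.3.3): TMM, filterByExpr (minimum count 10, total 15), quasi-likelihood test, two-sided, Benjamini-Hochberg adjustment over 12222 genes, called at an adjusted p under 0.01. Fold changes have a prior count of 0.125, the SE is the log2 change over the root of F, and log2 CPM has a prior count of 2. DESeq2 1.42.0 and limma-voom (limma 3.58.1) were among the alternatives. The code was tested on simulated data. Positions come from RefSeq GRCm38.p6, the assembly of mm10 (22542 rows matched by symbol, 1335 by an older symbol, 177 not), and exon lengths and strands from GENCODE vM21. The libraries differ at 15282 genes or more in every pair, so none was deposited in duplicate.

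The members and lists were chosen with earlier results of these data known. Named in full were members with an adjusted p under 0.05, the 3 most abundant of each group, the 5 with the largest p56 difference, and those under the filter with at least 3 counts in 1 library; of other lists, genes with an adjusted p under 0.01, and Morc3. The count that leaves out p56 from the comparison of ranges was added after seeing the data, as were the alternative fits of Morc3, Thy1, Piwil4, Stk31 and Rnf17.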

Additional observations from a re-analysis of the deposited data

How the results depend on the processing

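The number of germline genes called lower in ko, 2 by edgeR, was 4 with DESeq2, 1 with limma-voom, 1 with robust estimation, 5 with no filter on low counts and 5 at an adjusted p under 0.05, and ran from 1 to 4 with 1 library left out (1 when any ko clone was left out, 4 without p42, 2 without p43 and 4 without p56). No setting called a germline gene higher. Over all genes, 51 lower became 91 with DESeq2, 116 with no filter and 138 at 0.05, and ran from 17 to 142 with 1 library left out; 105 higher became 163, 170 and 193, and ran from 54 to 243. The 6 medians of log2 fold change, of all tested germline genes and of the 5 groups, kept their sign under every alternative, but some moved by over 1.5 times. Without p56 the median of all tested germline genes went from -0.40 to -0.26, that of the recombination genes from -0.28 to -0.18 and that of the regulators from -0.48 to -0.26. The piRNA median, -0.13, ran from -0.29 to -0.011 with 1 library left out and was -0.012 with a filter of at least 1 CPM in 3 libraries, and that of the last group, -0.33, was -0.56 without ko clone 3. Of 38 single genes refitted under each alternative, 4 changed sign, each when 1 library was left out: Ddx25 without ko clone 1 or p43 (range -0.075 to 0.13), Tdrd1 without p42 (-0.043 to 0.20), Pld6 without p42 (-0.29 to 0.14) and Sycp2 without p43 (-0.76 to 0.011). The number of genes with p56 highest or lowest, and with ko below wild type, stayed within 1.5 times the values given. Low counts limit what can be said of the 12 genes under the filter. They had 10 or fewer in every library, apart from Stra8 with 11 in ko clone 3, 11 in p43 and 52 in p56. No paired analysis was possible because ko clones and wild-type cultures share no replicate number in their labels.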
